A study of Homo sapiens with 9 samples.

Results

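ASNS, PSAT1, SHMT2 and MTHFD1L encode 4 enzymes that make asparagine, serine and one-carbon units. They were taken by gene symbol from the platform annotation, with every probeset of each gene. Each gene had 1 probeset, so the set is 4 of the 14884 named genes measured. The cells were SMS-KCNR, a line established from a human neuroblastoma (a childhood tumour of the sympathetic nervous system), grown in RPMI 1640 with 10% FBS, a medium that itself supplies asparagine, serine, glycine and folate. One group received the solvent DMSO, one 5 µM simvastatin and one 5 µM simvastatin together with 2 mM mevalonate, each for 30 hours, with 3 one-colour Affymetrix arrays per group. The series calls the samples of a group independent without saying whether they were separate cultures, and p-values here measure only how far these arrays spread, part of which may be technical. All results are from 1 line, 1 dose and 1 time.

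Asparagine synthetase, the product of ASNS, moves an amino group from glutamine to aspartate. Serine is made from a glycolytic intermediate by PHGDH, PSAT1 and PSPH in turn. SHMT2 then splits serine in the mitochondrion into glycine and a one-carbon unit carried by folate, and MTHFD1L releases that unit as formate, which the cytosol uses to build purines, thymidylate and methionine. These genes are textbook targets of ATF4, a transcription factor whose translation increases when cells lack amino acids or meet other stresses. Simvastatin blocks HMG-CoA reductase, and added mevalonate supplies the product of the blocked step.

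All 4 genes were higher with simvastatin than with DMSO, and all 4 were lower again when mevalonate was added. ASNS changed most, 2.29-fold, and SHMT2 least, 1.33-fold. With mevalonate the 4 genes did not come all the way back to the DMSO values, and for ASNS and PSAT1 the remaining difference passed the test. Both of these calls were lost without any single DMSO array or any single array with mevalonate (adjusted p up to 0.115 and 0.0884). "Rose", "fell" and "changed" are used here of an adjusted p under 0.05 in a limma fit over all 14884 genes. In that fit 5.98% of all genes rose with simvastatin, against 4 of 4 here, and 5.72% fell when mevalonate was added, again against 4 of 4. In the other directions, 7.38% of all genes fell with simvastatin and 5.31% rose on adding mevalonate. The median log2 change of the 4 genes was 0.65 with simvastatin, where the median of all genes was 0.01, and -0.31 on adding mevalonate, where that of all genes was 0.00. The 4 were picked with earlier results of these data known, so these counts describe them and do not test them as a set. Groups that did not overlap were more common, with 13.9% of all genes entirely higher with simvastatin and 13.7% entirely lower on adding mevalonate. The 2 comparisons share the simvastatin arrays.

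**Figure D1:**
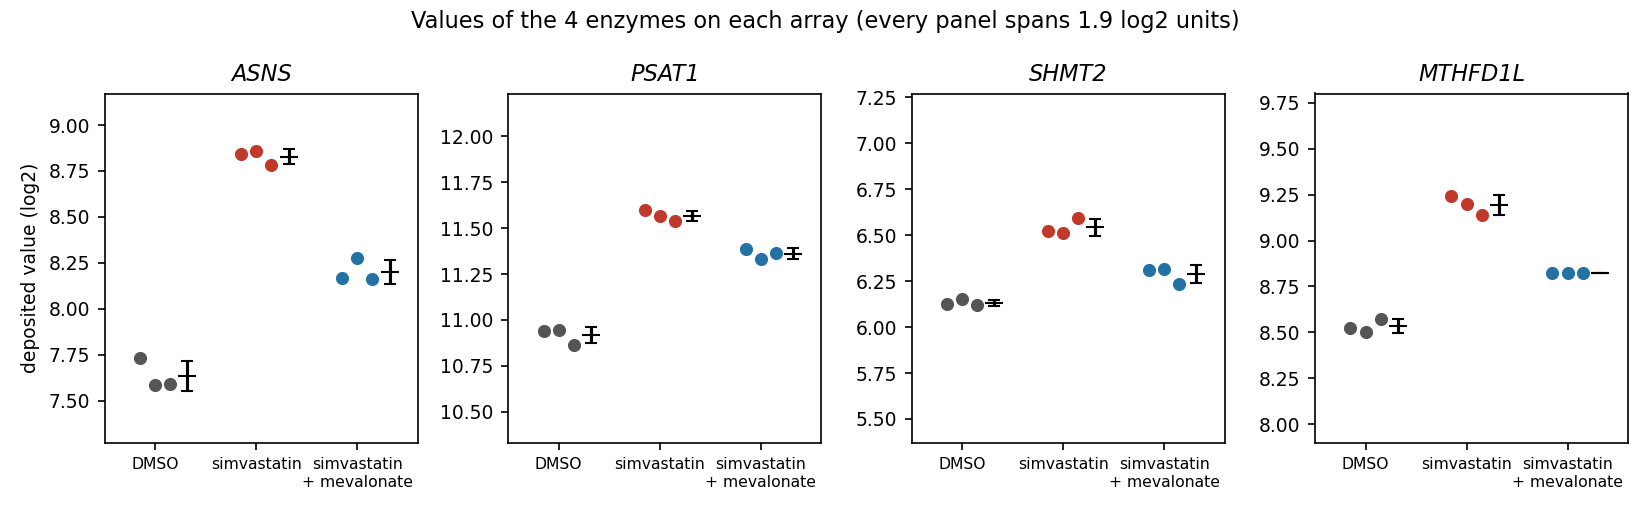
Deposited log2 values (vertical axis) of ASNS, PSAT1, SHMT2 and MTHFD1L on the 9 arrays, grouped by treatment on the horizontal axis; points are single arrays and black bars the mean ± SD of 3 arrays. In each panel the 3 simvastatin arrays lie above the 3 arrays with mevalonate, and these lie above the 3 DMSO arrays.

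ASNS stood at 7.73, 7.58 and 7.59 on the DMSO arrays (deposited log2 values), at 8.84, 8.86 and 8.78 on the simvastatin arrays and at 8.17, 8.27 and 8.16 on the arrays with mevalonate. No groups overlapped, and mevalonate placed the gene near the middle of the gap. Simvastatin raised it by 1.19 ± 0.06 (log2 change ± SE; adjusted p = 1.21e-05), which was the 11th largest rise among the 14884 genes. Adding mevalonate lowered it by 1.55-fold (-0.63 ± 0.06, adjusted p = 0.000257). In bulk RNA a change per cell and a change in the mix of cells cannot be told apart.

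The promoters of 3 of the 4 genes are shown because ATF4 and its C/EBP partners bind the composite element TGATGNAA, the amino acid response element, which was described first in ASNS. Each line gives the 250 bases before a RefSeq start site (GRCh38.p14), with matches to TGATGNAA, or to GTTACA, a second element known from the ASNS promoter, in capitals. SHMT2 is not shown.
ASNS, chr7:97872409-97872658, minus strand: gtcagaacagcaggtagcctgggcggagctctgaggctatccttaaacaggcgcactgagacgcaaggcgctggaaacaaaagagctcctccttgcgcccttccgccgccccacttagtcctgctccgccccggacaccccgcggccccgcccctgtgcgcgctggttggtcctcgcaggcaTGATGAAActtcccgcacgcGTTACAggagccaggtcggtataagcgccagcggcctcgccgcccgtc
MTHFD1L, chr6:150866236-150866485, plus strand: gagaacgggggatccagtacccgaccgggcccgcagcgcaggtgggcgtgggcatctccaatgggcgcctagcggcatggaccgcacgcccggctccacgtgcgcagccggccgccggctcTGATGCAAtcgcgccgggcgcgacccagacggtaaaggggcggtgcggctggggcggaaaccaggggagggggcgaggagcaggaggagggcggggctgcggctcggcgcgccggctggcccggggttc
PSAT1, chr9:78296875-78297124, plus strand: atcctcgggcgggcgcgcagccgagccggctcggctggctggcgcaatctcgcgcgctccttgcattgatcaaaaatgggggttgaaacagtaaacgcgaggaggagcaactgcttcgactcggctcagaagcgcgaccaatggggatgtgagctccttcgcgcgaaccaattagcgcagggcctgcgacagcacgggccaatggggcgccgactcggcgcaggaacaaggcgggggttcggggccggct

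In ASNS the TGATGNAA match begins 68 bases before the start site, and GTTACA begins 48 bases before it, both on the gene's strand. The window of the other listed ASNS start site, chr7:97872166-97872415, holds neither. In MTHFD1L the match begins 129 bases before the start site shown. The same bases begin 90 bases before a nearby MTHFD1L start site. At another nearby start site they lie after the start, beginning at base +25. A distant start site of the gene holds no match. The window of PSAT1 holds neither sequence, which says only that these letters are not in this stretch. Both strands were searched, and the 2 motifs do not overlap in these windows. Over all 35116 promoter windows of 300 bases (250 before and 50 after a start site), 3.62% hold TGATGNAA and 6.66% hold GTTACA. A match is a description and not evidence of binding.

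PSAT1 encodes phosphoserine aminotransferase, the middle step of serine synthesis. Its log2 values were 10.94, 10.95 and 10.87 with DMSO, 11.60, 11.56 and 11.54 with simvastatin, and 11.39, 11.33 and 11.37 with mevalonate added. The 3 groups did not overlap, and the mevalonate arrays lay nearer to simvastatin than to DMSO. The rise was 1.57-fold (log2 change 0.65 ± 0.04, adjusted p = 3.50e-05), and the fall on adding mevalonate was 1.15-fold (-0.21 ± 0.04, adjusted p = 0.0149). Without simvastatin plus mevalonate replicate 2 the call of this fall was lost (adjusted p = 0.0525), as it was with every probeset of the table tested (adjusted p = 0.0671).

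The enzymes before and after PSAT1 moved less than PSAT1 did. PHGDH, the first and committed step, went from 8.80 ± 0.02 (log2, SD, n = 3) with DMSO to 8.97 ± 0.07 with simvastatin and 9.01 ± 0.03 with mevalonate. It rose by 0.17 ± 0.05 with simvastatin (adjusted p = 0.0446), but leaving out any one array other than simvastatin replicate 2 ended the call (adjusted p up to 0.123). On adding mevalonate the change of PHGDH was 0.05 ± 0.05 (adjusted p = 0.602), with an interval from -0.06 to 0.15. PSPH, the phosphatase that releases serine, differed by -0.02 ± 0.04 between simvastatin and DMSO (adjusted p = 0.870). Its value was identical, 7.29, on the 3 DMSO arrays. Of the 3 measured genes of serine synthesis and breakdown (PHGDH, PSPH and the serine racemase gene SRR) only PHGDH rose, against 5.98% of all genes. On adding mevalonate 0 of the 3 changed. There 0 reached an unadjusted p under 0.05 (limma), as 3535 of all 14884 genes did.

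**Figure D2:**
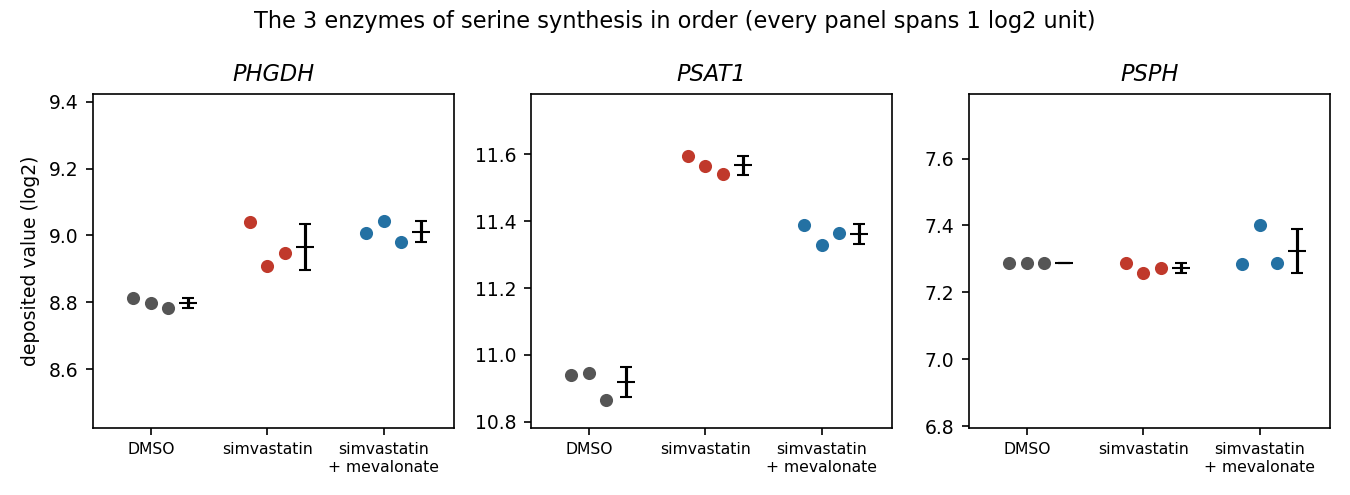
Deposited log2 values (vertical axis) of PHGDH, PSAT1 and PSPH, the 3 consecutive enzymes of serine synthesis, on the 9 arrays by treatment; points are single arrays and black bars the mean ± SD of 3 arrays. PSAT1 separates the 3 groups, PHGDH is at 8.97 with simvastatin and 9.01 with mevalonate added, and PSPH stays between 7.26 and 7.40.

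SHMT2 encodes the mitochondrial serine hydroxymethyltransferase. Its log2 values were 6.13, 6.15 and 6.12 with DMSO, 6.52, 6.51 and 6.59 with simvastatin, and 6.31, 6.32 and 6.23 with mevalonate added. The groups were again separate and in the same order as for ASNS and PSAT1. SHMT2 rose by 0.41 ± 0.04 with simvastatin (adjusted p = 0.000479) and fell by 0.25 ± 0.04 on the log2 scale when mevalonate was added (adjusted p = 0.00659).

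SHMT1, which carries out the same reaction in the cytosol, went the other way. Its log2 values were 6.44, 6.24 and 6.31 with DMSO, 6.12, 6.03 and 6.08 with simvastatin, and 6.28, 6.41 and 6.28 with mevalonate added. All simvastatin arrays were below all others, and the DMSO and mevalonate arrays overlapped. SHMT1 fell by 0.25 ± 0.06 with simvastatin (adjusted p = 0.0313) and rose by 0.25 ± 0.06 on adding mevalonate (adjusted p = 0.0402). Both calls depended on single arrays. Leaving out DMSO replicate 1, DMSO replicate 3 or one of the simvastatin arrays ended the call of the fall (adjusted p up to 0.0945). Leaving out DMSO replicate 3, one of the simvastatin arrays or one of those with mevalonate ended the call of the rise (adjusted p up to 0.119).

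The difference between the genes was tested on the per-array value of SHMT2 minus SHMT1. Its mean was -0.20 ± 0.11 (log2, SD, n = 3) on the DMSO arrays and 0.47 ± 0.06 on the simvastatin arrays, a change of 0.66 with no overlap between the groups. The exact two-sided permutation test gave p = 0.1 (adjusted p = 0.15 over 3 such tests), where 0.1 is the smallest p that 3 arrays against 3 allow. Mevalonate brought the difference to -0.03 ± 0.06, again without overlap with simvastatin (exact permutation p = 0.1, adjusted p = 0.15), while it overlapped with DMSO (exact permutation p = 0.2, adjusted p = 0.2). The corresponding comparison of MTHFD1L with the cytosolic MTHFD1 was not analysed here.

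**Figure D3:**
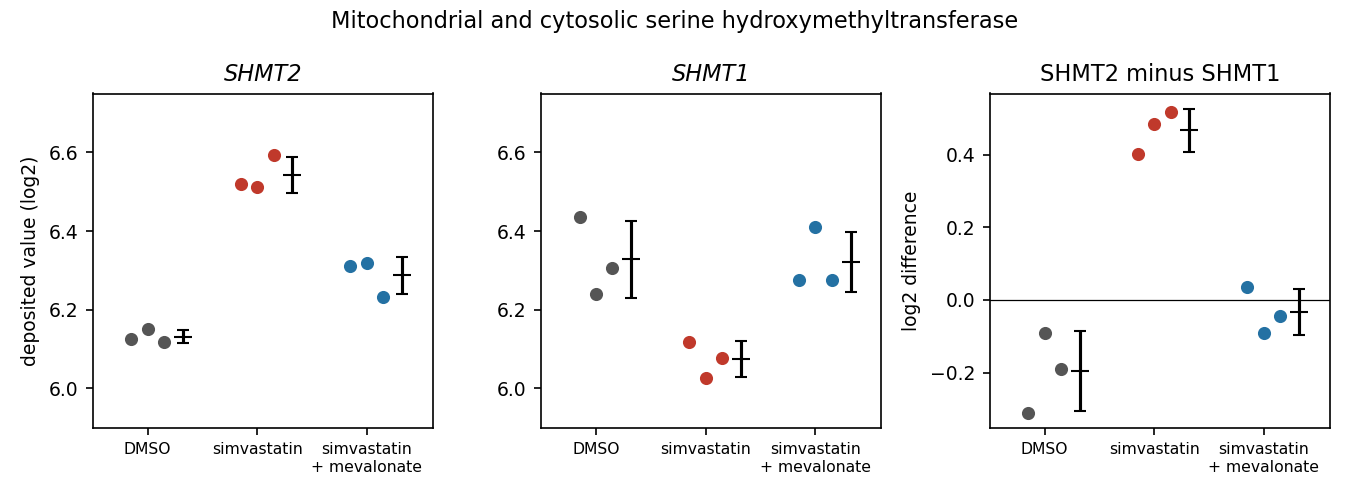
Deposited log2 values (vertical axis) of the mitochondrial SHMT2 and the cytosolic SHMT1 on the 9 arrays by treatment, and their difference on each array; points are single arrays and black bars the mean ± SD of 3 arrays. SHMT2 is highest and SHMT1 lowest with simvastatin, and the difference goes from -0.20 with DMSO to 0.47 with simvastatin and -0.03 with mevalonate.

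MTHFD1L encodes the mitochondrial formate-releasing enzyme. Its log2 values were 8.53, 8.50 and 8.57 with DMSO and 9.24, 9.20 and 9.14 with simvastatin. All 3 arrays with mevalonate gave 8.82, an identical value, between the other groups. Such triplets occurred in 331 genes (2.22%) with mevalonate and 327 (2.20%) with DMSO. The triplet adds no spread to the error of this gene but counts in its degrees of freedom. The error given here may therefore be too small. MTHFD1L rose by 0.66 ± 0.04 with simvastatin (1.58-fold, adjusted p = 3.58e-05) and fell by 0.37 ± 0.04 on the log2 scale when mevalonate was added (adjusted p = 0.000879).

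Around these enzymes, 10 genes of the mitochondrial one-carbon and glycine list were measured, and 1 rose with simvastatin, near the 5.98% of all genes. It was MTHFD2L, a mitochondrial methylene-tetrahydrofolate dehydrogenase (0.28 ± 0.06, adjusted p = 0.0202). Its call was lost without simvastatin replicate 2 or 3 (adjusted p up to 0.0637), which leaves 0 members, while 2 members rose without simvastatin replicate 1 or simvastatin plus mevalonate replicate 3. Without simvastatin replicate 1, 1 member also fell. On adding mevalonate, MTHFD2L (-0.29 ± 0.06, adjusted p = 0.0196) and SFXN3, of the family that carries serine into mitochondria (-0.39 ± 0.07, adjusted p = 0.00603), fell. GCAT, which converts a threonine breakdown product into glycine, rose (0.28 ± 0.07, adjusted p = 0.0269). Leaving out replicate 2 or 3 of either group ended the call of the MTHFD2L fall (adjusted p up to 0.0683). Leaving out any simvastatin array, or replicate 1 or 2 with mevalonate, ended that of the GCAT rise (adjusted p up to 0.0965). In the glycine cleavage system GLDC, AMT and GCSH differed with simvastatin by 0.02 ± 0.07 (adjusted p = 0.906), 0.09 ± 0.09 (adjusted p = 0.596) and 0.38 ± 0.21 (adjusted p = 0.320). These genes were dim, with DMSO means of 5.15, 5.20 and 4.55, where the array medians were 5.17 to 5.21. DMGDH, which breaks down dimethylglycine, was also dim (DMSO mean 4.70). It had the largest difference of the list, 0.40 ± 0.13, without overlap between the groups, and did not pass (adjusted p = 0.0761). The transporter gene SFXN1 was at 0.00 ± 0.05 (adjusted p = 0.993). The median log2 change of this list was 0.05 with simvastatin and -0.08 on adding mevalonate.

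Of 7 measured cytosolic one-carbon and folate genes, 2 fell with simvastatin, against 7.38% of all genes, and 0 rose, with a median of -0.03. Beside SHMT1 this was TYMS, the thymidylate synthase (-0.20 ± 0.04, adjusted p = 0.0134), and without the arrays named above for SHMT1, TYMS alone fell. With every probeset of the table tested neither passed (adjusted p = 0.0626 for TYMS and 0.0914 for SHMT1). On adding mevalonate TYMS was at 0.02 ± 0.04 (adjusted p = 0.764) and SHMT1 alone changed. Among 10 measured genes of purine synthesis, a pathway that uses formate, 1 rose, near the 5.98% of all genes. It was ATIC, which adds the last formyl group of the purine ring (0.16 ± 0.05, adjusted p = 0.0490), and leaving out any one array other than simvastatin replicate 1 ended the call (adjusted p up to 0.141). The median of that list was 0.01, and 0 of 10 changed on adding mevalonate. There 0 of the 10 reached an unadjusted p under 0.05 (limma), as 3535 of all 14884 genes did. Of 7 genes of the methionine cycle and transsulfuration 0 changed with simvastatin, with log2 changes from -0.03 to 0.18. An unadjusted p under 0.05 (limma) was reached by 2 of the 7, and by 3805 of all 14884 genes.

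The other enzymes of asparagine, aspartate, glutamate and proline metabolism followed ASNS in 2 of 12 measured cases with simvastatin, against the 5.98% of all genes that rose, and 0 of 12 fell. ASS1, which joins citrulline to aspartate in arginine synthesis, had log2 values of 8.72, 8.69 and 8.79 with DMSO, 9.53, 9.44 and 9.42 with simvastatin, and 8.94, 8.90 and 8.91 with mevalonate. Its 3 groups did not overlap, with mevalonate close above DMSO. ASS1 rose by 0.73 ± 0.05 (adjusted p = 3.58e-05) and fell by 0.55 ± 0.05 when mevalonate was added (adjusted p = 0.000209). PYCR1, a mitochondrial enzyme of proline synthesis, rose by 0.31 ± 0.06 (adjusted p = 0.00965) and stood at -0.20 ± 0.06 on adding mevalonate (adjusted p = 0.0648). ASS1 was the only member of this list that fell with mevalonate, and without DMSO replicate 3 there were 2. ASNSD1, named for its asparagine synthetase domain, was at 0.12 ± 0.07 (adjusted p = 0.311), and GLUL, the glutamine synthetase, at -0.06 ± 0.04 (adjusted p = 0.501). The list's median was 0.11 with simvastatin and -0.03 on adding mevalonate.

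The regulators of the ATF4 pathway rose in 5 of 9 measured cases with simvastatin, against 5.98% of all genes, and 0 fell. ATF4 mRNA itself was at 10.06 ± 0.06 (log2, SD, n = 3) with DMSO and 10.21 ± 0.05 with simvastatin, a difference of 0.15 ± 0.05 (SE) that did not pass (adjusted p = 0.0948). TRIB3, a pseudokinase induced by ATF4, rose by 1.11 ± 0.12 (adjusted p = 0.000472), ATF5, a related transcription factor, by 0.82 ± 0.06 (adjusted p = 0.000109), and ATF3, another, by 0.54 ± 0.11 (adjusted p = 0.0120). EIF2AK3, the kinase PERK that acts upstream of ATF4, rose by 0.41 ± 0.06 (adjusted p = 0.00275). EIF2AK2, the kinase PKR, rose by 0.15 ± 0.04 (adjusted p = 0.0381), and leaving out any one array other than simvastatin plus mevalonate replicate 2 ended the call (adjusted p up to 0.117). EIF2AK4, the kinase GCN2 that senses uncharged tRNA, was at 0.07 ± 0.05 (adjusted p = 0.370), and DDIT3, the stress factor CHOP, at 0.19 ± 0.12 (adjusted p = 0.398). On adding mevalonate TRIB3 (-1.11 ± 0.12), ATF5 (-0.65 ± 0.06), ATF3 (-0.56 ± 0.11) and EIF2AK3 (-0.57 ± 0.06) fell, 4 of 9 against 5.72% of all genes, and 0 rose. The list's median was 0.19 with simvastatin and -0.25 on adding mevalonate.

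**Figure D4:**
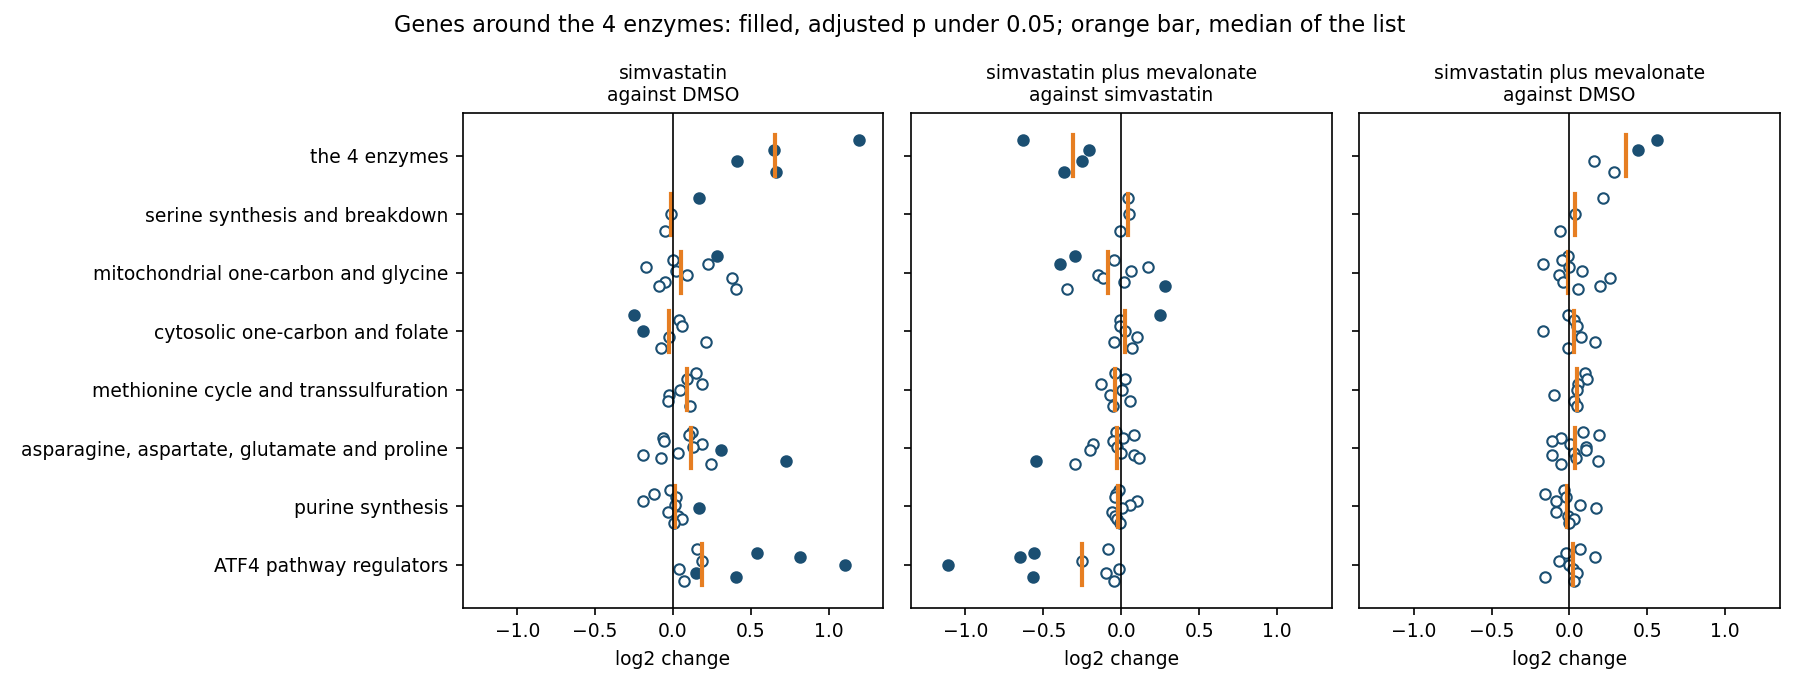
Log2 changes (horizontal axis) of the 4 enzymes and of the measured genes of 7 lists around them (rows) in the 3 comparisons (panels); each circle is a gene, filled where its adjusted p is under 0.05, and orange bars are list medians. In the right panel, simvastatin plus mevalonate against DMSO, the filled circles are ASNS at 0.57 and PSAT1 at 0.44.

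Simvastatin plus mevalonate was then compared with DMSO. No group received mevalonate alone, so what remained of the simvastatin rise and an effect of mevalonate itself cannot be told apart here. ASNS was still 1.48-fold above DMSO (0.57 ± 0.06, 95% interval 0.44 to 0.69, adjusted p = 0.0183) and PSAT1 1.36-fold (0.44 ± 0.04, interval 0.35 to 0.54, adjusted p = 0.0176). MTHFD1L was at 0.29 ± 0.04 (interval 0.19 to 0.39, adjusted p = 0.0587) and SHMT2 at 0.16 ± 0.04 (interval 0.06 to 0.26, adjusted p = 0.254), and neither passed. In each of the 4 genes all 3 arrays with mevalonate were above all 3 DMSO arrays, which held for 7.24% of all genes. In this comparison 11 of 14884 genes changed (0.0739%), 5 of them upward (0.0336%), and ASNS and PSAT1 were 2 of the 5. The others were HMGCS1, ACAT2 and MSMO1, all of sterol synthesis or its supply, named here because of their calls. Of 58 measured genes of the surrounding lists 0 changed. An unadjusted p under 0.05 (limma) was reached by 12 of the 58, and by 1635 of all 14884 genes. TRIB3 was at -0.00 ± 0.12 (adjusted p = 0.995), ATF5 at 0.17 ± 0.06 (adjusted p = 0.405) and ASS1 at 0.18 ± 0.05 (adjusted p = 0.216). PHGDH was at 0.21 ± 0.05 (adjusted p = 0.139), a larger difference than that of SHMT2, and its groups did not overlap.

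The calls of ASNS and PSAT1 in this comparison were not kept under every setting. Without any single DMSO array or any single array with mevalonate both calls were lost, with log2 changes from 0.53 to 0.61 for ASNS (adjusted p up to 0.115) and from 0.42 to 0.46 for PSAT1 (adjusted p up to 0.0884). Without any single simvastatin array both were kept (adjusted p up to 0.0478). With genes whose mean lay under the median of all genes left out, both passed (adjusted p = 0.00175 for ASNS and 0.00118 for PSAT1), as did MTHFD1L (adjusted p = 0.00811), among 192 changed genes in place of 11. The total of 11 was 0 without any DMSO array or without simvastatin plus mevalonate replicate 1, 2 without replicate 2 of that group and 3 without its replicate 3.

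**Figure D5:**
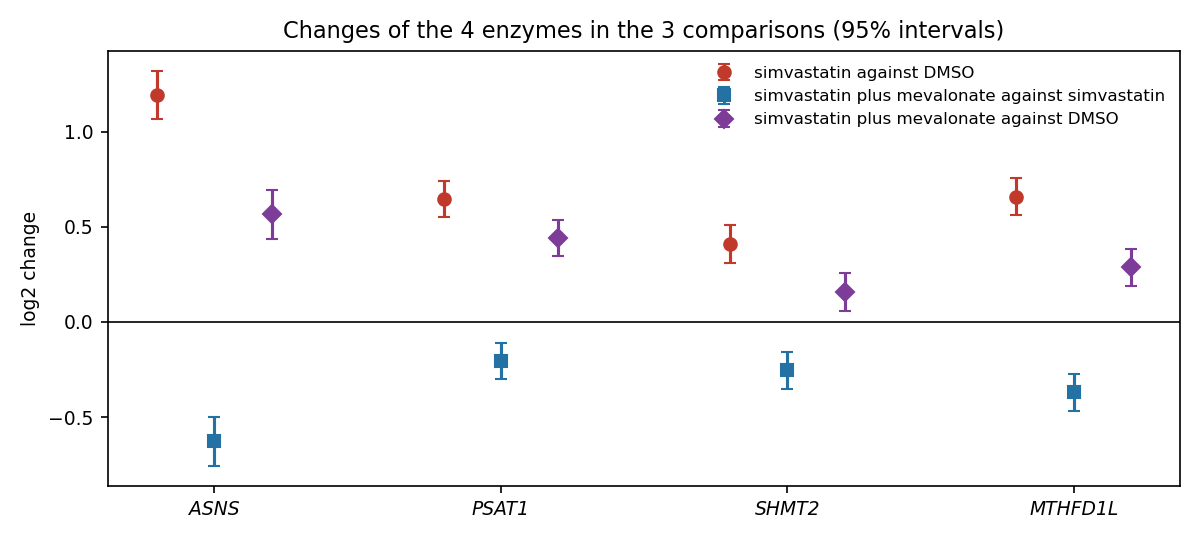
Log2 changes (vertical axis) of the 4 enzymes (horizontal axis) in the 3 comparisons; symbols are limma estimates and bars 95% intervals. All intervals for simvastatin plus mevalonate against DMSO lie above 0, from SHMT2 (0.06 to 0.26) to ASNS (0.44 to 0.69). The intervals are not adjusted for the number of genes, and SHMT2 and MTHFD1L did not pass there (limma adjusted p = 0.254 and 0.0587).

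As a description, the share of the simvastatin rise that was left with mevalonate was 68.3% for PSAT1, 47.4% for ASNS, 43.8% for MTHFD1L and 38.0% for SHMT2. Any effect of mevalonate itself is part of this share, as no group received it alone. Over single arrays the share ran from 63.5% to 72.5% for PSAT1, 44.0% to 53.5% for ASNS and 24.7% to 45.5% for SHMT2. The SHMT2 range overlaps that of ASNS and includes the MTHFD1L value, so the order of these 3 was not settled. Among neighbouring genes the share was 25.1% for ASS1, 20.3% for ATF5, -0.360% for TRIB3 and -4.35% for MTHFD2L. For TRIB3 and MTHFD2L the means with mevalonate were just under those with DMSO. For PHGDH it was 128% (110% to 147% over the 3 arrays), above all 4 genes, of a small rise. Differences among the 4 genes, chosen after the data were seen, were examined on the per-array value of 1 gene minus another, in 18 exact two-sided permutation tests whose smallest possible p is 0.1. With simvastatin, ASNS gained 0.54 on PSAT1, 0.54 on MTHFD1L and 0.78 on SHMT2, each without overlap between the groups (exact permutation p = 0.1, adjusted p = 0.129). PSAT1 and MTHFD1L differed in their rise by -0.01 with overlapping groups (exact permutation p = 0.9, adjusted p = 0.9). On adding mevalonate, PSAT1 then gained 0.16 on MTHFD1L without overlap (exact permutation p = 0.1, adjusted p = 0.129). Its gain on SHMT2 in that comparison was 0.05 with overlapping groups (exact permutation p = 0.4, adjusted p = 0.424). Between DMSO and simvastatin plus mevalonate, ASNS gained 0.12 on PSAT1, also with overlap (exact permutation p = 0.2, adjusted p = 0.225).

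Genes with the most similar profiles were sought as those with the smallest root mean square difference over the 9 arrays, after subtracting each gene's DMSO mean, among 6807 protein-coding genes whose mean was at or above the median of all genes. Closest to ASNS were DDIT4, an inhibitor of the kinase mTORC1 (0.11 log2 units), ACAT2, a cytosolic thiolase (0.13), and MSMO1, a sterol oxidase (0.23), where the median over all candidates was 0.77. Closest to PSAT1 were INSIG1, which holds SREBP proteins in the endoplasmic reticulum (0.09), GARS1, the glycyl-tRNA synthetase (0.10), and DDX25, an RNA helicase (0.11), with a median of 0.47. Closest to SHMT2 were HYOU1, a chaperone of the endoplasmic reticulum (0.04), ANKRD11 (0.04) and ACACA, an acetyl-CoA carboxylase (0.05), with a median of 0.27. Closest to MTHFD1L were the seryl- and alanyl-tRNA synthetase genes SARS1 (0.06) and AARS1 (0.07), and DDX25 (0.07), with a median of 0.43.

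The arrays had medians from 5.17 to 5.21, and arrays of a group correlated across genes at 0.994 to 0.996. The line carried the markers of its lineage, with 8 measured noradrenergic genes between 9.11 and 10.82 on the DMSO arrays. The 3 measured Schwann and glial markers were between 5.16 and 5.96 and the endothelial PECAM1 between 4.21 and 4.79, near or below the array medians. Of the 5 measured mesenchymal markers LUM was the brightest, at 8.68 to 8.80 on the DMSO arrays, well above the array medians. With simvastatin 5 of 8 noradrenergic markers fell, against 7.38% of all genes. The summed log2 values of the 8 went from 80.0 to 80.2 with DMSO to 77.0 to 77.2, and to 79.5 to 79.9 with mevalonate. The mesenchymal genes LUM and DCN, 2 of 5 measured, also fell with simvastatin. Both rose on adding mevalonate, where 5.31% of all genes rose. The sums of this list were 31.1 to 31.2, 29.0 to 29.4 and 30.2 to 30.3 in the same order. The part of these shifts in the changes of the 4 enzymes was not tested.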

How the data were processed

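Deposited values are on the log2 scale, 1 per probeset and array, made by the authors. The scale was read from the values. GCRMA and HOMER are named in the submitters' processing notes without version or role, and other settings are not given in the sources used here. Normalization between arrays hides a change common to all genes, and background correction, where used, can draw dim genes together. No detection calls were used. Precision is set by having 3 arrays per group.

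Of 53617 probesets, 16098 (30.0%) carried 1 symbol, 0 several and 37519 none. All 16098 matched the RefSeq table (GRCh38.p14) by Entrez identifier. The brightest probeset per gene gave 14884 genes. One limma fit (limma 3.58.1, R 4.3.3) used 9 arrays and 3 group means (6 residual and 2.39 prior degrees of freedom), with Benjamini-Hochberg adjustment over 14884 genes. Per-array differences between genes were tested with exact permutations (SciPy 1.17.1). The procedure was tested on simulated data.

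The 4 genes, the lists and the tests were chosen with earlier results of these data known. Named are the 4 genes, up to 4 changed members per list, some fixed genes (PHGDH, PSPH, SHMT1, ATF4 and DDIT3) and the 3 nearest profiles of each gene. Other genes, EIF2AK2 (the fifth changed gene of its list) among them, were named after their values were seen. MTHFD1, MTHFD2, CEBPB and CHAC1 were not analysed here. Promoters are RefSeq's (GRCh38.p14), with 3 of 4 genes matched. Alternatives covered probesets, normalization, dim genes, variance model, groups fitted, a replicate block and single arrays left out.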

Additional observations from a re-analysis of the deposited data

How the results depend on the processing

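Of 291 values recomputed for the 4 genes, the SHMT pair and the totals of changed genes, 257 were counted as kept, and 0 changed direction. Kept meant the same direction and side of the threshold for the 4 genes, and within 1.5 times for the totals. For the SHMT pair only the direction was compared, since its exact permutation p cannot go under 0.1. The rises with simvastatin kept their calls for all 4 genes under all 17 alternatives, with log2 changes from 1.17 to 1.24 for ASNS, 0.62 to 0.68 for PSAT1, 0.63 to 0.69 for MTHFD1L and 0.38 to 0.43 for SHMT2. The exceptions lay in 2 comparisons. For PSAT1 on adding mevalonate, the log2 change of -0.21 no longer passed with every probeset tested (53617 features), and single arrays left out gave -0.22 to -0.19. For simvastatin plus mevalonate against DMSO, ASNS (0.57) and PSAT1 (0.44) no longer passed with every probeset tested (adjusted p = 0.0666 for both), with a fit of these 2 groups alone (0.0830 and 0.0765) or with the replicate number as a block (0.0904 for both). Single arrays left out gave 0.53 to 0.61 for ASNS and 0.42 to 0.46 for PSAT1. MTHFD1L passed in that comparison with quantile normalization (0.30, adjusted p = 0.0473), without the dim genes (0.29, adjusted p = 0.00811) and with a robust variance trend (0.29, adjusted p = 0.00313). The total of changed genes there was 11, and it was 7 with every probeset tested, 192 without the dim genes, 223 with the robust trend, 0 with the replicate block, 0 with only the 2 groups fitted, and 0 to 12 with single arrays left out. The cause was not tested, apart from the fewer genes or arrays that some alternatives use. With every probeset tested, the simvastatin calls of PHGDH, MTHFD2L, SHMT1, TYMS, ATIC and EIF2AK2 were lost (adjusted p 0.0626 to 0.152), and with the replicate block those of the same genes but TYMS (0.0501 to 0.0910). Of 672 list counts, 71 moved by over 1.5 times, each by at most 2 genes.

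Same-numbered arrays of different groups did not deviate together (correlations of deviations from group means -0.08 to 0.05, against -0.04 to 0.07 for other numbers). No pairing by number was seen, but with so few arrays per group this cannot exclude one. The block gave 1576 changed genes in place of 1988 with simvastatin and 1230 in place of 1642 on adding mevalonate. MTHFD1L minus MTHFD1 was not run. Without detection calls, small changes of dim genes may not have been resolved.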
